A study of Mus musculus with 12 samples.

Results

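Epithelial-mesenchymal transition (EMT) regulators are the subject here: 9 genes that were taken by name, although earlier results of these data were known, and followed in 12 transplanted 4T1 tumours. They were the adhesion genes Cdh1 and Epcam, the mesenchymal genes Vim and Cdh2, and the transcription factor genes Snai1, Snai2, Twist1, Zeb1 and Zeb2. All 9 were among 35944 genes that the files listed and among the 15459 that had at least 10 reads in at least 3 tumours. 4T1 is a line of mouse triple-negative mammary carcinoma cells. For every tumour, 100000 4T1 cells had been placed under the skin of a female BALB/c mouse of 6 to 8 weeks, and RNA was taken on day 21. The 4 groups differed in the extracellular vesicles (EVs) that were injected beside the tumour at 3 µg every 2 days: all EVs came from the mouse endothelial line MS-1 and had been electroporated with a miRNA mimic. The mimic was cel-miR-67, a worm miRNA, in the ctrl group, and 1 of the mouse miRNAs miR-222-3p, miR-183-5p and miR-142-5p in each of the other groups, with 3 tumours per group. No group without EVs was among the samples, so every group shared the vesicles, the electroporation and a mimic, and each library held tumour cells and host cells together. Because these are bulk samples, fewer cells of a type and less RNA per cell cannot be told apart. Between groups, a p-value sets a difference against the spread between tumours, which the count test DESeq2 estimated for each gene from all 12 libraries in 1 fit. The p-values of correlations come from permutations of the tumours without regard to group.

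In EMT, epithelial cells loosen the contacts that hold them in a sheet and take on a motile, spindle-shaped form. E-cadherin, made from Cdh1, holds neighbouring epithelial cells together. The SNAIL, TWIST and ZEB factors lower its transcription, and the ZEB factors are themselves held down by miRNAs of the miR-200 family. Carcinoma cells often pass through mixed states in which adhesion genes and mesenchymal genes are on at once, and the stroma of a tumour expresses the mesenchymal genes as well.

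The 12 tumours held both kinds of transcript, and no difference between the 4 groups was detected. Vim was among the most abundant mRNAs, Epcam and Cdh1 were both well expressed, Cdh2 was close to the limit of detection, and among the factors Twist1, Zeb2 and Snai1 stood above Zeb1 and Snai2. None of the 9 genes passed the test in any comparison between groups. Across tumours, without regard to group, Cdh1 rose and fell with Epcam, and Snai1 with Vim and with Twist1, although the adjusted test no longer called them in TPM or when some single tumours were left out. How common such relations were among other genes was not examined.

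The libraries held between 20285968 and 27021401 estimated reads. Replicates of a group differed by far more than counting noise, with a chi-square per degree of freedom between 13.2 and 56.1 over genes, so none was counted as a repeat. The 3 miR-222-3p libraries and miR-183-5p tumour 3 had at most 0.00128% of their reads on the pseudogene Gm28661, against 0.0294% to 0.141% in the other 8. The labels name no batch, and for the miR-222-3p group this difference and the treatment cannot be told apart. The carcinoma keratins Krt8 and Krt18 averaged 545 and 804 TPM (a level that is corrected for transcript length and scaled to the same total in each library), and these are the keratins of simple epithelia and of carcinomas that arise from them.

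The mature miRNAs of the 3 mimics, from RefSeq on GRCm38.p6, are shown with the seed (bases 2 to 8) in capitals, because the seed is the stretch that pairs with a target. No 2 of them share a seed.
miR-142-5p (entry mmu-miR-142a-5p): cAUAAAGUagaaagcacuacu
miR-183-5p: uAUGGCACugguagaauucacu
miR-222-3p: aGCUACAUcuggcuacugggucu

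The reverse complement of each seed was looked for in the 3′ UTR of the most abundant coding transcript of each of the 9 genes, as a 7-base match to the seed or a 6-base match followed by A. Both ZEB genes, Cdh1 and Cdh2 held a match to at least 1 mimic. Matches to the miR-183-5p seed were in Cdh1, Zeb1 and Zeb2, 1 in each, and matches to that of miR-222-3p were in Cdh2 and Zeb2, 1 in each. No match to the full seed followed by A was found, and no match of either kind to miR-142-5p was in the 9 sequences searched. Other coding transcripts of these genes were not searched. For Zeb2 the transcript searched, of 5624 bases, held 27.2% of the TPM and 8374 reads over all libraries. A coding transcript of 9124 bases, which was not searched, held 20.2% of the TPM and 10300 reads. Such matches are common: among tested genes whose 3′ UTR was within 20% of the length of that of Zeb2 (1450 bases), 15.3% held one for miR-183-5p and 17.8% one for miR-222-3p. The same share for miR-183-5p was 18.6% at the length of Cdh1 (1631 bases) and 22.5% at the length of Zeb1 (2401 bases). For miR-222-3p at the length of Cdh2 (1124 bases) it was 13.6%. The matches of Cdh1 and Zeb2 are shown in GRCm38, transcript strand, with the match in capitals, since the levels of these genes are given below beside the mimic they match.
Cdh1 with miR-183-5p, chr8:106669269-106669291, plus strand: taggtgcaTGCCATAgtgggata
Zeb2 with miR-183-5p, chr2:44987832-44987854, minus strand: ctctgcaaGTGCCATccttgtac
Zeb2 with miR-222-3p, chr2:44987123-44987143, minus strand: gaataaaaATGTAGCcaaact

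Ranked by mean TPM over the 12 tumours, Vim came first at 2336 ± 206 (SD, n = 12), above 99.7% of tested genes. Epcam followed at 96.2 ± 20.1 and Cdh1 at 54.5 ± 9.15. The factors came next, with Twist1 at 38.9 ± 2.57, Zeb2 at 28.3 ± 5.46 and Snai1 at 21.8 ± 4.28. The genes at the foot of the order were well apart from these. Zeb1 stood at 3.84 ± 1.03, Snai2 at 1.31 ± 0.379 and Cdh2 at 0.385 ± 0.211. Most neighbours in this order kept their places in all 12 tumours. The exceptions were Twist1, which exceeded Zeb2 in 11 of 12, and Zeb2, which exceeded Snai1 in 9 of 12. Between Twist1 and Zeb2, and between Zeb2 and Snai1, the ranges over tumours overlapped. The ranges of Epcam and Cdh1 and of Snai2 and Cdh2 overlapped too, although the first of each pair was the higher in every tumour.

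**Figure D1:**
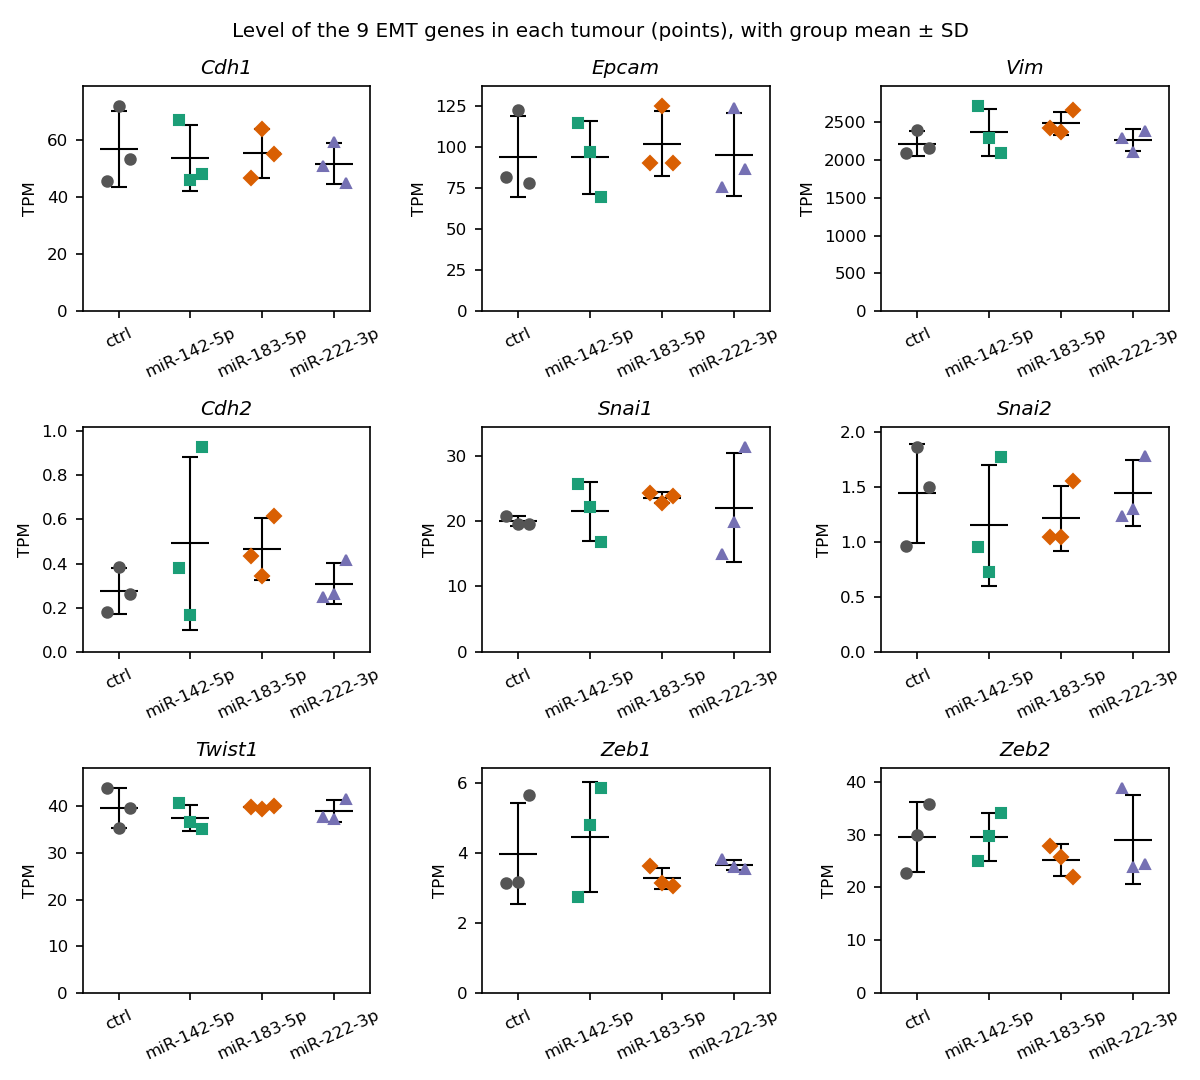
Level of each gene (TPM, linear axis from 0) in each of 12 tumours, with 3 points per group in tumour order 1 to 3, a horizontal bar for the group mean and whiskers of 1 SD. Groups overlap in nearly every panel. In the Snai1 panel the 3 miR-183-5p tumours (22.7 to 24.2 TPM) lie above the 3 ctrl tumours (19.5 to 20.8 TPM).

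The TPM of Vim and Zeb2 included much signal from short noncoding transcripts. A retained-intron transcript of Vim, 535 bases long, held 47.8% of the TPM of the gene, and the main coding transcript of 2193 bases had a mean of 1207 TPM. By reads instead of TPM, coding transcripts held 86.4% of Vim. For Zeb2 a processed transcript of 432 bases held 32.0% of the TPM, and coding transcripts held 63.3% of TPM and 95.5% of reads. Coding transcripts held 78.0% of the TPM of Zeb1, and between 99.1% and 100% of that of the other 6 genes. Counted over coding transcripts alone, Vim had 1214 TPM and was still first, but Zeb2 had 17.9 TPM and fell below Snai1. The order of these factors therefore depends on which transcripts are summed.

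The genes also differed in how much their TPM varied between tumours. In TPM, Twist1 was among the steadiest genes measured: its coefficient of variation was 6.60%, and only 4.30% of tested genes had a lower one. Its range was 35.2 to 43.8 TPM, but 781 to 1126 in counts scaled between libraries by size factors. The coefficient of variation of Vim was 8.82%, against a median of 17.0% over all tested genes. Cdh1 (16.8%), Zeb2 (19.3%), Snai1 (19.7%) and Epcam (20.9%) were near the median, while Zeb1 (26.8%) and Snai2 (28.9%) varied more. Cdh2 varied most, at 54.8%, on 10 to 58 reads per library.

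Cdh1 encodes E-cadherin, the main adhesion molecule of epithelial junctions (chr8:106603351-106670246, plus strand). In ctrl tumours 1 to 3 it was at 45.8, 71.9 and 53.5 TPM, and in the miR-142-5p tumours at 67.0, 46.0 and 48.2 TPM. In the miR-183-5p tumours it was at 46.9, 64.1 and 55.2 TPM, and in the miR-222-3p tumours at 51.1, 59.3 and 45.0 TPM. The highest tumour was in the ctrl group and the lowest in the miR-222-3p group, and all groups overlapped. The log2 fold change against ctrl in the DESeq2 test was -0.06 (95% interval -0.47 to 0.36) with miR-142-5p, -0.01 (-0.43 to 0.41) with miR-183-5p and -0.14 (-0.56 to 0.28) with miR-222-3p. In linear terms the interval for miR-183-5p, whose seed matches the 3′ UTR of Cdh1, ran from 0.742-fold to 1.33-fold of ctrl.

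Epcam encodes a surface glycoprotein of epithelia and carcinomas (chr17:87635979-87651129, plus strand). It was at 81.4, 123 and 78.0 TPM in ctrl tumours and at 114, 96.8 and 69.7 TPM in miR-142-5p tumours. In miR-183-5p tumours it was at 90.5, 125 and 90.4 TPM, and in miR-222-3p tumours at 75.4, 124 and 86.6 TPM. The ctrl, miR-183-5p and miR-222-3p groups each held 1 tumour far above the other two, and all groups overlapped. Against ctrl, the log2 fold change was 0.14 with miR-183-5p and 0.02 with each of the other mimics, with a standard error of 0.27 in each case. Epcam exceeded Cdh1 in every tumour, by 1.45 to 2.10 times.

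Vim encodes vimentin, the intermediate filament of mesenchymal cells (chr2:13573927-13582826, plus strand). Its levels in ctrl tumours were 2089, 2403 and 2167 TPM, and in miR-142-5p tumours 2713, 2298 and 2093 TPM. The miR-183-5p tumours had 2428, 2376 and 2660.4 TPM, and the miR-222-3p tumours 2299, 2110.4 and 2391 TPM. The miR-183-5p tumours were on the high side, but ctrl tumour 2 lay inside their range. In normalised counts, where the same values are scaled between libraries by size factors, the 3 miR-183-5p tumours did lie above the 3 ctrl tumours. With miR-183-5p the log2 fold change was 0.19 (95% interval -0.10 to 0.47). It was 0.12 with miR-142-5p and 0.03 with the miR-222-3p mimic, each with a standard error of 0.15. Vim exceeded Cdh1 by 33.4 to 53.1 times in TPM.

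Cdh2 encodes N-cadherin, the cadherin of nerve and mesenchymal cells that often appears where E-cadherin is lost. It was at 0.179, 0.385 and 0.263 TPM in ctrl tumours and at 0.381, 0.167 and 0.926 TPM in miR-142-5p tumours. In miR-183-5p tumours it was at 0.434, 0.341 and 0.617 TPM, and in miR-222-3p tumours at 0.249, 0.260 and 0.418 TPM. The highest tumour and the lowest tumour of the whole set were both in the miR-142-5p group, and each treated group overlapped ctrl. Its fold changes were the largest of the 9 genes and the least certain: log2 0.82 (95% interval -0.33 to 1.98, unadjusted p = 0.162) with miR-142-5p, 0.79 (-0.37 to 1.94, unadjusted p = 0.182) with miR-183-5p and 0.19 (-0.98 to 1.36, unadjusted p = 0.751) with miR-222-3p. Leaving out miR-142-5p tumour 3 brought the first of these to 0.08, and leaving out miR-183-5p tumour 3 brought the second to 0.53. These 2 libraries also stood apart in markers of other cells: the summed TPM of 4 skeletal muscle markers was 274 in miR-183-5p tumour 3 and 7.50 to 14.4 in the other libraries, and that of 4 T cell markers was 222 in miR-142-5p tumour 3 and 23.3 to 79.3 in the others. The part of these cells in the Cdh2 values was not tested. The interval for miR-142-5p reached from 0.795-fold to 3.94-fold, with 3 tumours in each group. Cdh1 exceeded Cdh2 by 52.1 times in miR-142-5p tumour 3 and by up to 276 times in miR-142-5p tumour 2.

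Snai1 encodes SNAIL, a zinc-finger repressor that binds the promoter of Cdh1 (chr2:167538195-167542814, plus strand). In ctrl tumours it was at 20.8, 19.5 and 19.6 TPM, and in miR-183-5p tumours at 24.2, 22.7 and 23.9 TPM. The miR-142-5p tumours were at 25.7, 22.1 and 16.7 TPM, and the miR-222-3p tumours at 15.0, 19.8 and 31.3 TPM. All 3 miR-183-5p tumours lay above all 3 ctrl tumours, whereas the other two groups spread across the ctrl range, with the lowest and the highest tumour both in the miR-222-3p group. With miR-183-5p the log2 fold change was 0.26 (95% interval -0.29 to 0.80, unadjusted p = 0.356), a fold of 1.19. The exact two-sided permutation test on log2(TPM + 1) gave p = 0.1, the smallest that 3 tumours against 3 allow. For the other mimics the log2 fold changes were 0.13 and 0.15 (standard error 0.28 each).

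Snai2 encodes SLUG, a close relative of SNAIL (chr16:14705852-14709385, plus strand). It ranged from 0.728 TPM in miR-142-5p tumour 2 to 1.86 TPM in ctrl tumour 2, on 19.9 to 65.1 reads per library. The group means were 1.44 ± 0.452 TPM in ctrl, 1.15 ± 0.552 with miR-142-5p, 1.22 ± 0.298 with miR-183-5p and 1.44 ± 0.30 with miR-222-3p (SD, n = 3 each). All 4 groups overlapped, and the log2 fold changes were -0.31 with miR-142-5p, -0.23 with miR-183-5p and 0.02 with the miR-222-3p mimic, with standard errors of 0.40 to 0.41. With miR-142-5p the value was -0.70 without tumour 3 of that group and -0.075 without tumour 2, and with miR-183-5p it was -0.45 without tumour 3 of that group and -0.014 without ctrl tumour 2. Snai1 exceeded Snai2 by 9.42 to 30.4 times.

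Twist1 encodes a basic helix-loop-helix factor of mesoderm and neural crest (chr12:33957671-33959829, plus strand). Its levels were 43.8, 35.4 and 39.6 TPM in ctrl tumours and 40.6, 36.6 and 35.2 TPM in miR-142-5p tumours. They were 39.8, 39.4 and 40.1 TPM in miR-183-5p tumours and 37.7, 37.3 and 41.6 TPM in miR-222-3p tumours. The miR-183-5p tumours lay within 1 TPM of each other and inside the ctrl range. The intervals of the log2 fold changes were among the narrowest: -0.38 to 0.24 for miR-142-5p, -0.29 to 0.33 for miR-183-5p and -0.34 to 0.27 for miR-222-3p. The last of these is 0.787-fold to 1.21-fold.

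Zeb1 encodes a zinc-finger and homeodomain repressor of epithelial genes. In ctrl tumours it was at 3.13, 3.16 and 5.65 TPM, and in miR-142-5p tumours at 2.75, 4.80 and 5.84 TPM. In miR-183-5p tumours it was at 3.61, 3.15 and 3.06 TPM, and in miR-222-3p tumours at 3.82, 3.59 and 3.54 TPM. The levels above 4 TPM were those of ctrl tumour 3 and miR-142-5p tumours 2 and 3, and no group was apart from ctrl. The log2 fold change with miR-183-5p, whose seed matches the Zeb1 3′ UTR, was -0.24 (95% interval -0.74 to 0.26). It was -0.09 over coding transcripts alone and -0.08 without the length correction, and without ctrl tumour 3 it was 0.04. Against the miR-142-5p tumours, the miR-183-5p tumours gave -0.42 (-0.91 to 0.08, unadjusted p = 0.10, adjusted p = 0.784 in DESeq2), the lowest p of any of the 9 genes in any of the 6 comparisons. Leaving out miR-142-5p tumour 3 gave -0.23, and leaving out tumour 1 of that group gave -0.64.

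Zeb2 encodes the sister repressor of ZEB1, which macrophages and other myeloid cells express too (chr2:44983632-45117395, minus strand). It was at 22.7, 29.9 and 35.9 TPM in ctrl tumours and at 24.9, 29.7 and 34.1 TPM in miR-142-5p tumours. In miR-183-5p tumours it was at 27.8, 25.8 and 21.9 TPM, and in miR-222-3p tumours at 38.7, 23.8 and 24.5 TPM. The miR-183-5p tumours were in the lower part of the ctrl range and overlapped it. The log2 fold change was -0.20 (95% interval -0.55 to 0.16) with miR-183-5p and -0.03 (-0.39 to 0.33) with miR-222-3p, the mimics whose seeds match its 3′ UTR, and 0.02 (-0.34 to 0.38) with miR-142-5p. The summed TPM of 6 macrophage markers was 899 to 1336 in the miR-183-5p tumours and 1358 to 1700.0 in ctrl, narrowly without overlap. Of these markers 0 of 6 passed the adjusted test between these groups. Taken singly, Adgre1, Cd68 and Mrc1 overlapped between them, and Csf1r, C1qa and C1qb did not. The part of macrophages in the Zeb2 values was not tested.

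Counted over all 9 genes, 0 passed an adjusted p of 0.05 against ctrl with miR-142-5p, where 0.00649% of all tested genes did. With miR-183-5p 0 of 9 passed, beside 0.0% of all genes, and with miR-222-3p 0 of 9, beside 0.026%. These comparisons share the ctrl tumours. Between the miRNA groups 0 of 9 passed in each of the 3 comparisons, beside 0.0519% of all genes where the miR-183-5p and miR-142-5p tumours were compared. The share was 0.0324% between the miR-183-5p and miR-222-3p tumours and 0.0389% between the miR-142-5p and miR-222-3p tumours. The DESeq2 likelihood ratio test over the 4 groups called 0 of 9, beside 0.0584%. In all 7 tests 0 of 9 had an unadjusted p under 0.05 in DESeq2, and the same was true of edgeR's quasi-likelihood test, which also called 0 of 9. In DESeq2 the share of all genes with an unadjusted p under 0.05 in the comparisons with ctrl was 3.22% with the miR-183-5p mimic, 3.56% with that of miR-142-5p and 2.29% with that of miR-222-3p. Between the miRNA groups it was 7.95% for the miR-183-5p and miR-142-5p tumours, 3.24% for the miR-183-5p and miR-222-3p tumours and 3.59% for the miR-142-5p and miR-222-3p tumours, and it was 4.73% over the 4 groups. With such small shares of all genes called, these counts of 0 do not set the 9 genes apart. The median log2 fold change of the 9 was 0.02 in each comparison with ctrl, and that of all genes lay between -0.01 and -0.005.

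**Figure D2:**
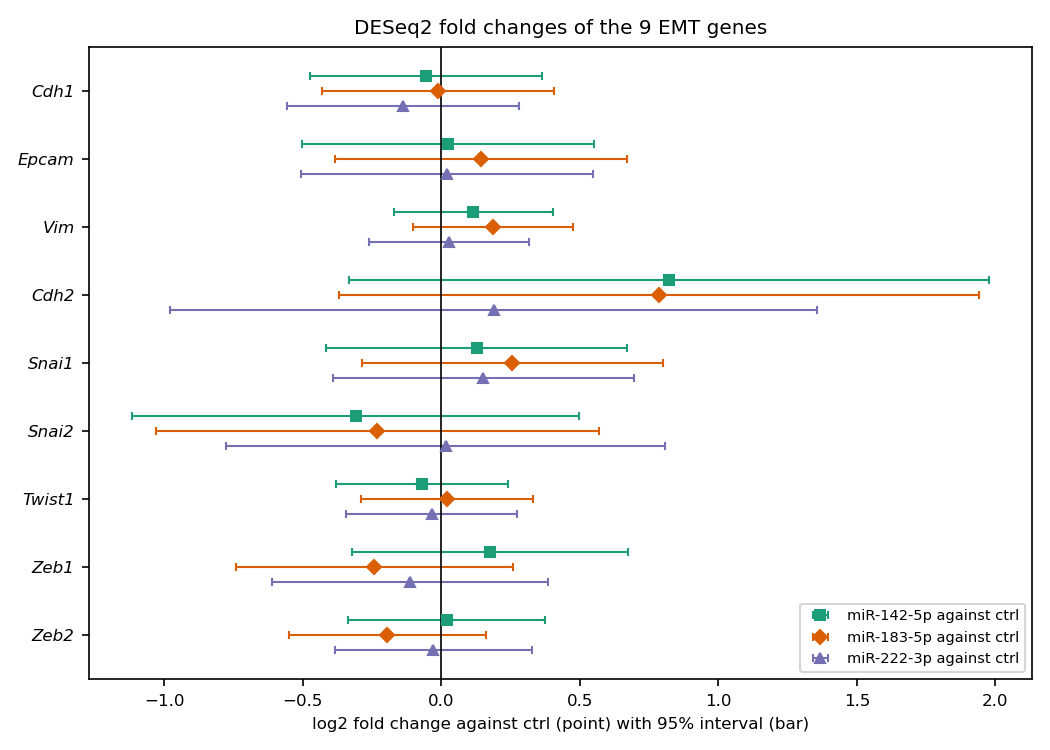
Log2 fold change against ctrl (x axis) of each of the 9 genes, with 95% intervals as bars, with a colour and symbol for each mimic. Every interval includes 0. Those of Cdh2 are the widest (up to -0.98 to 1.36), and those of Vim and Twist1 are narrow.

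In normalised counts, 2 of 9 genes did not overlap between miR-183-5p and ctrl, Vim and Snai1, both higher with miR-183-5p. The share of all genes without overlap in that comparison was 9.17%. With miR-142-5p 0 of 9 did not overlap, beside 6.07%, and with miR-222-3p 0 of 9, beside 5.5%. In TPM 1 of 9 did not overlap between miR-183-5p and ctrl, Snai1, beside 8.14% of all genes. Of the markers of other cells, 0 of 7 fibroblast genes and 0 of 5 neutrophil genes passed the adjusted test between these groups. The summed TPM of 7 fibroblast markers was 932 to 1127 with miR-183-5p and 407 to 924 in ctrl, narrowly without overlap. Taken singly, Col1a1 and Dcn did not overlap between these groups, and Col1a2, Col3a1, Pdgfra, Pdgfrb and Lum did. The summed TPM of 5 neutrophil markers was 1793 to 2909 with miR-183-5p and 1004 to 1933 in ctrl, with overlap. All 7 fibroblast markers and all 5 neutrophil markers were detected in both groups. The summed TPM of 4 carcinoma keratins was 1539 to 1745 with miR-183-5p, inside the ctrl range of 1452 to 2021. The part of these cells in the Vim and Snai1 values was not tested.

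A wider list of 37 EMT genes gave the same outcome. Of these, 35 had enough reads to test, and Cldn3 and Snai3 did not. In each of the 3 comparisons with ctrl, 0 of 35 passed the adjusted test in DESeq2 and in edgeR, and the number with an unadjusted p under 0.05 was 2 with miR-183-5p, beside the 3.22% of all genes given above, and 0 with each of the other mimics. The median log2 fold change of the list was 0.05 with miR-183-5p and -0.01 with each of the others. The genes with the highest level in each class were Ctnnb1 (β-catenin, which links cadherins to the cytoskeleton) at 829 TPM, Elf3 (an epithelial ETS factor) at 13.9, Tcf4 (a partner of TWIST factors) at 98.1, S100a4 (a calcium-binding protein of motile cells) at 2705 and Tgfb1 (TGF-β1, a main inducer of EMT) at 86.6. The log2 fold change against ctrl farthest from 0 among these 5 genes was -0.24, that of Elf3 with miR-142-5p.

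The 2 genes with an unadjusted p under 0.05 with miR-183-5p were Prrx1 and Cdh3, and they are named after their values were seen. Prrx1, a homeobox factor of mesenchyme and fibroblasts, was at 11.9, 11.9 and 13.2 TPM in miR-183-5p tumours and at 5.90, 9.30 and 7.27 TPM in ctrl. These groups did not overlap. The miR-222-3p tumours, at 7.18, 11.6 and 12.3 TPM, and the miR-142-5p tumours, at 10.2, 4.49 and 6.94 TPM, both overlapped ctrl, and the miR-222-3p tumours overlapped those of miR-183-5p too. With miR-183-5p the log2 fold change was 0.75 (SE 0.30, unadjusted p = 0.0124, adjusted p = 0.9998 in DESeq2). In a DESeq2 fit of the 6 miR-183-5p and ctrl libraries alone the adjusted p was 0.0192, where 37 of 14832 genes, or 0.249%, passed. Cdh3, which encodes P-cadherin, had a mean of 0.286 TPM over all tumours and a log2 fold change of 1.29 (SE 0.56, unadjusted p = 0.0206). The summed TPM of the fibroblast markers given above did not overlap between the miR-183-5p and ctrl groups either, although several of the markers did when taken singly. Their part in the Prrx1 values was not tested.

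Since the groups did not separate the 9 genes, the variation between tumours was described across all 12. Of the 36 pairs of genes, 10 had an unadjusted Pearson p under 0.05 on log2(normalised count + 1), and 3 passed after Benjamini-Hochberg adjustment over the 36. The share among pairs of other genes was not taken, so these counts do not set the 9 genes apart. Both adhesion genes moved together. Cdh1 and Epcam had r = 0.82 (permutation p = 0.00153, adjusted p = 0.0445) and rho = 0.71 (permutation p = 0.0129, adjusted p = 0.0873), with r = 0.77 without the 2 tumours farthest from the median of Cdh1. Snai1 moved with a mesenchymal gene and with another factor. Vim and Snai1 had r = 0.77 (permutation p = 0.00371, adjusted p = 0.0445) and rho = 0.87 (permutation p = 0.00041, adjusted p = 0.0148), with r = 0.69 without the 2 tumours farthest in Vim. Snai1 and Twist1 had r = 0.77 (permutation p = 0.00342, adjusted p = 0.0445) and rho = 0.81 (permutation p = 0.00211, adjusted p = 0.0380), with r = 0.77 without the 2 tumours farthest in Snai1.

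**Figure D3:**
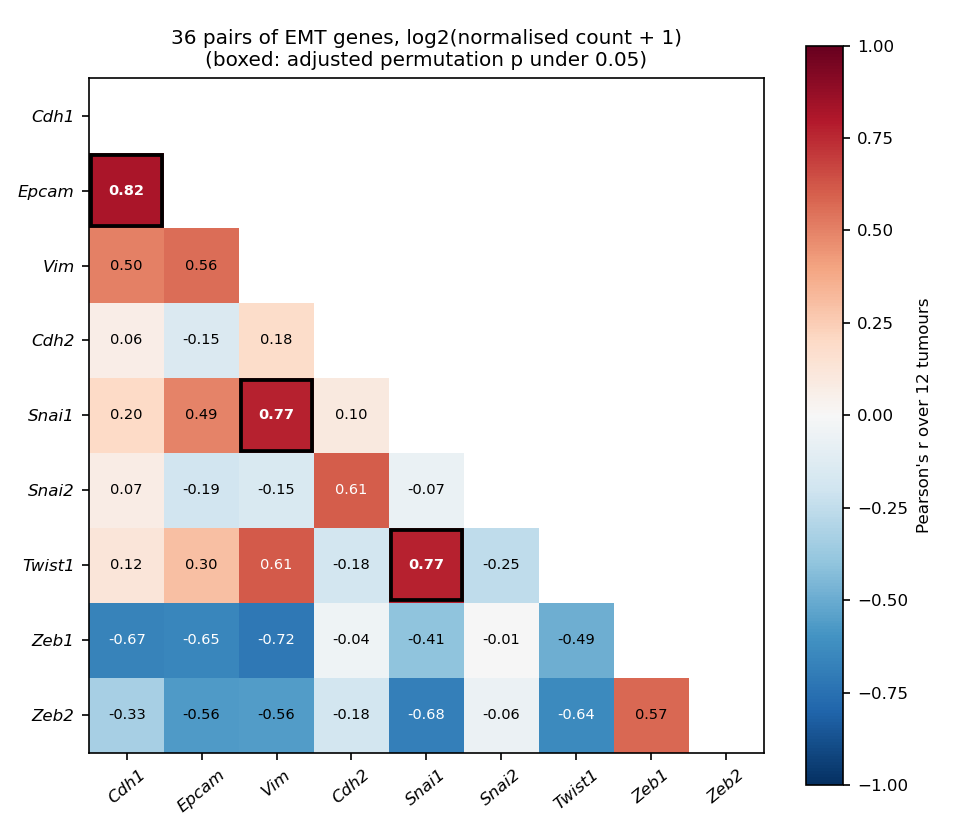
Pearson's r over 12 tumours for each of the 36 pairs of genes, on log2(normalised count + 1), from blue (-1) to red (1). The 3 boxed pairs passed the adjusted permutation test (0.82, 0.77 and 0.77), and the rows of Zeb1 and Zeb2 hold most of the negative values, down to -0.72.

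These 3 relations rest on small differences in p. On values centred on their group means r was 0.84 for Cdh1 and Epcam, 0.75 for Vim and Snai1 and 0.79 for Snai1 and Twist1, so they were also present within groups. Leaving out 1 tumour kept r between 0.71 and 0.90 for all 3, but the adjusted test then called 0 pairs in 8 of 12 cases: without ctrl tumour 2 or 3, miR-142-5p tumour 1 or 3, any of the miR-183-5p tumours or miR-222-3p tumour 1. It called 4 pairs without ctrl tumour 1, 5 without miR-142-5p tumour 2, 5 without miR-222-3p tumour 2 and 2 without miR-222-3p tumour 3. In TPM the r values were 0.76, 0.55 and 0.57, and 0 pairs passed. Within the 8 libraries with at least 0.0294% of their reads on Gm28661, r was 0.84 for Cdh1 and Epcam, 0.90 for Vim and Snai1 and 0.77 for Snai1 and Twist1 (unadjusted permutation p = 0.0136, 0.00203 and 0.0267). The other 4 libraries were too few for a value.

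**Figure D4:**
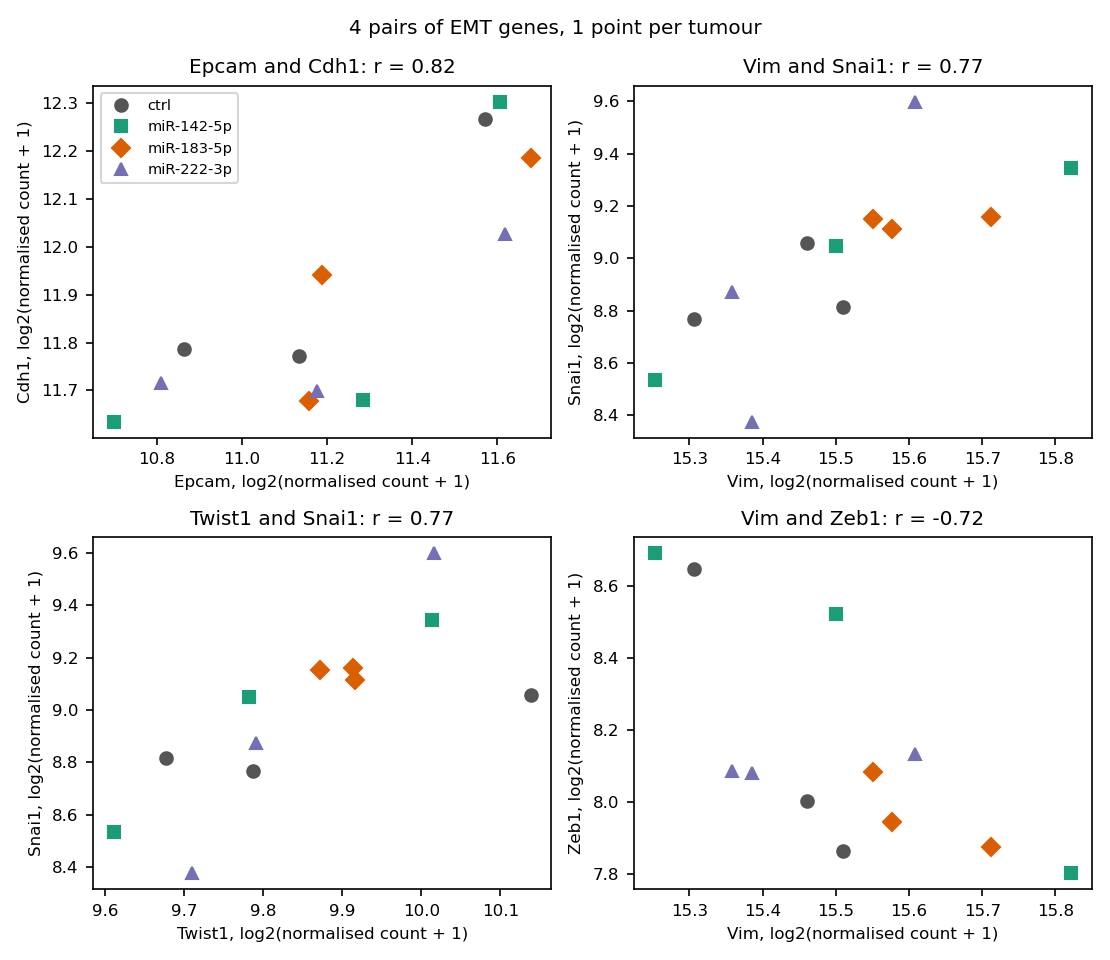
Level of one gene against another, both as log2(normalised count + 1), with 1 point per tumour and a symbol per group. Epcam and Cdh1 (r = 0.82), Vim and Snai1 (0.77) and Twist1 and Snai1 (0.77) rise together, and Vim and Zeb1 (-0.72) go opposite ways. In the panel of Twist1 and Snai1 the 3 miR-183-5p tumours lie close together. Their normalised counts there are 553 to 570 for Snai1 and 936 to 965 for Twist1.

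The values of r below 0 were mostly those of the ZEB genes, and none of these passed the adjusted test on normalised counts over all 12 tumours. Zeb1 had r = -0.72 with Vim (permutation p = 0.00809, adjusted p = 0.0728), -0.67 with Cdh1 (permutation p = 0.0168, adjusted p = 0.101) and -0.65 with Epcam (permutation p = 0.0223, adjusted p = 0.115). Zeb2 had r = -0.68 with Snai1 (permutation p = 0.0149, adjusted p = 0.101) and -0.64 with Twist1 (permutation p = 0.0255, adjusted p = 0.115). Without the 2 farthest tumours these 5 values lay between -0.49 and -0.58. Over coding transcripts alone the r of Vim and Zeb1 was -0.46, and that of Snai1 and Zeb2 was -0.79. Some of these pairs did pass in other settings: Zeb1 with Cdh1 and with Vim on group-centred values, Zeb1 with Epcam and Zeb2 with Snai1 over coding transcripts, Zeb1 with Epcam and with Vim without miR-142-5p tumour 2, and Zeb1 with Vim and Zeb2 with Snai1 without miR-222-3p tumour 2. Of Cdh1 with the other factors, r was 0.20 for Snai1, 0.07 for Snai2 and 0.12 for Twist1. Cdh2 and Snai2, both near the limit of detection, had r = 0.61 (permutation p = 0.0359, adjusted p = 0.129) and 0.36 without the 2 farthest tumours. When centred on group means their r was 0.95, and the pair passed the adjusted test in that setting.

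Levels of the 9 genes were set beside the mean of each list of cell type markers, 81 relations in all, and 0 of them passed the adjusted permutation test, although 22 had an unadjusted p under 0.05. The share of such relations over all tested genes was not taken, so this count does not set the 9 genes apart. The strongest were those of Epcam, with r = 0.83 for the carcinoma keratins (permutation p = 0.00129, adjusted p = 0.0873) and -0.79 for endothelial markers (permutation p = 0.00263, adjusted p = 0.0873). Cdh1 had r = -0.76 with endothelial markers and 0.70 with the keratins. Zeb1 had r = 0.75 with the endothelial markers and -0.63 with the keratins. For Zeb2 these were 0.71 and -0.66, and r was 0.66 with macrophage markers. With the keratins, Snai1 had r = 0.75 and Vim 0.70. The part of differing shares of tumour and host cells in the pairs above was not tested.

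One more property of the libraries moved with some of the factors. In each tumour the mean log2 deviation of the longest 25% of genes (effective length above 3426 bases) minus that of the shortest 25% (below 1292 bases) was taken, and it ran from -0.24 in ctrl tumour 1 to 0.21 in ctrl tumour 3. It was built from the same normalised counts, with Zeb2, Zeb1, Cdh1 and Cdh2 among the longest genes and Vim among the shortest. By construction the longest genes rise with it more, on average, than the shortest. Twist1 fell as this shift rose, with r = -0.86 (permutation p = 0.00038, adjusted p = 0.00342 over 9 relations) and rho = -0.83 (permutation p = 0.00117). Snai1 did so too, with r = -0.79 (permutation p = 0.00243, adjusted p = 0.0109) and rho = -0.73 (permutation p = 0.00972). Zeb2 rose with it, with r = 0.72 (permutation p = 0.00894, adjusted p = 0.0268) and rho = 0.69 (permutation p = 0.0150). Without the 2 tumours farthest from the median shift the values were -0.87, -0.91 and 0.63, and within the 8 libraries with the higher share of reads on Gm28661 they were -0.87, -0.79 and 0.93 (unadjusted permutation p = 0.00593, 0.0202 and 0.0015). The other 6 genes did not pass, Vim with r = -0.60 (permutation p = 0.0414, adjusted p = 0.0931). The share of all tested genes that would pass was not taken, so these counts do not set the 9 genes apart. The effective length of Twist1 was 1422 bases and that of Snai1 1415, against 3859 for Zeb2. Among the genes that did not pass, Zeb1 (4570 bases) had r = 0.52, Cdh1 (4222) -0.25 and Cdh2 (4001) 0.20. Of the shorter ones, Vim (1195) had -0.60, Epcam (1526) -0.57 and Snai2 (1815) 0.30. All these values are on normalised counts, and r with the shift was not taken in TPM. In ctrl tumours 1 and 3, at the ends of the shift, Twist1 was at 1126 and 882 normalised counts but at 43.8 and 39.6 TPM. The part of this shift in the relations of Snai1 with Twist1, Vim and Zeb2 was not tested.

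**Figure D5:**
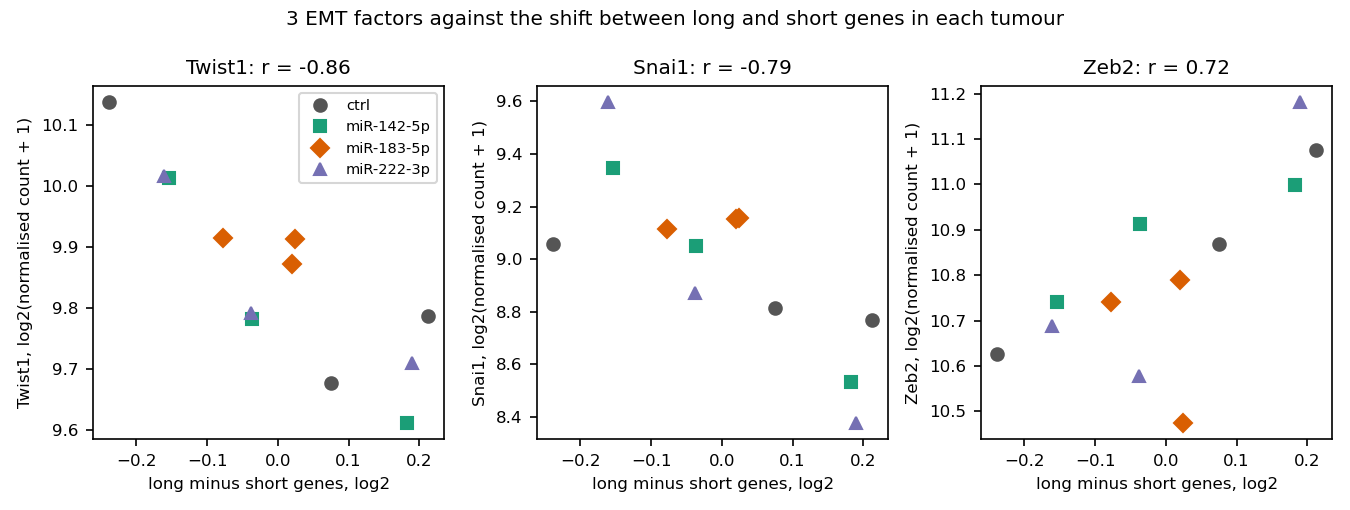
Log2(normalised count + 1) of Twist1, Snai1 and Zeb2 (y axes) against the shift between long and short genes in the same library (x axes, log2), with 1 point per tumour. Twist1 (r = -0.86) and Snai1 (r = -0.79) fall from left to right and Zeb2 (r = 0.72) rises. The miR-183-5p tumours lie near the middle of the axis (-0.077 to 0.025), and those of the other groups are spread along it.

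For each gene with a mean of at least 1 TPM, the 3 coding genes whose levels followed it most closely over the 12 tumours were picked from 10497 with at least 5 TPM, and r is given as a description only. Cdh1 was followed by Acsl5 (an acyl-CoA synthetase, r = 0.89), Emp1 (an epithelial membrane protein, 0.88) and Perp (a desmosomal protein, 0.88). Epcam was followed by Kcnk1 (a potassium channel, 0.93), Cldn7 (a claudin of tight junctions, 0.91) and Pla2g16 (a phospholipase, 0.90). Vim was followed by Cystm1 (0.92), Mt1 (a metallothionein, 0.91) and Rhoc (a small GTPase of cell motility, 0.91). Snai1 was followed by Gadd45g (a stress-induced gene, 0.95), H13 (a signal peptide peptidase, 0.92) and 1810037I17Rik (0.92). Twist1 was followed by Mrpl17 (a mitochondrial ribosomal protein, 0.96), Phpt1 (a histidine phosphatase, 0.95) and Stub1 (a ubiquitin ligase, 0.94). None of the genes named here was another of the 9. Zeb1 was followed by Acad10 (0.92), Orai2 (a calcium channel, 0.92) and Zfp36l1 (an mRNA decay factor, 0.89). Zeb2 was followed by Dgkq (a diacylglycerol kinase, 0.96), Nav1 (0.95) and Chd6 (a chromatin remodeller, 0.94), and Snai2 by Nploc4 (0.88), Ptpn11 (the phosphatase SHP2, 0.87) and Hmgxb3 (0.85).

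SNAIL and ZEB proteins bind the E-box CACCTG, which reads CAGGTG on the other strand, so the promoters were searched for both. RefSeq windows of 300 bases, from 250 before to 50 after a start on GRCm38.p6, were found for 5 of 9 genes, and Cdh1, Cdh2, Snai2 and Zeb1 had no entry. Epcam held 2 matches, at -187 and -19 from the start, and Snai1 held 1 at -126. The windows of Vim, Twist1 and Zeb2 did not contain these letters. Of all 32851 windows, 20.2% held at least 1 match and 2.88% held 2 or more. The r of Epcam was -0.65 with Zeb1, -0.56 with Zeb2, 0.49 with Snai1 and -0.19 with Snai2. None of these passed the adjusted test on normalised counts over all 12 tumours, and the part of these matches in the Epcam values was not tested. The Epcam window is printed because Epcam had the most matches, which are in capitals.
Epcam promoter, chr17:87635729-87636028, plus strand: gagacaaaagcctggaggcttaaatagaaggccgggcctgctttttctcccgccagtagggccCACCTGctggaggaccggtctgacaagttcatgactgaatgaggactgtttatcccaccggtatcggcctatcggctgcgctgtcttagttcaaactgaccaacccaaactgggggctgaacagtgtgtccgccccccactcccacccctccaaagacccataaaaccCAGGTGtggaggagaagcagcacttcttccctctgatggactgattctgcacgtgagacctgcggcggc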

How the data were processed

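RNA of 12 tumours had been extracted with miRNeasy, made into TruSeq Stranded mRNA libraries and, by the authors, quantified with Salmon on GRCm38 transcripts. The deposited tables hold an estimated count of reads and a TPM per transcript. The sources name 2 Ensembl releases. Transcripts were summed to genes with GENCODE M21 (116710 of 118783 matched without version, and 0.633% to 0.671% of reads did not match). The 9 genes and the gene lists were chosen with earlier results of these data known. Marker lists, the long and short gene shift and the count over coding transcripts were added after seeing the data.

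Estimated counts were rounded and tested with DESeq2 1.42.0 in R 4.3.3 (Wald test with length offsets, all 12 libraries in 1 fit, at least 10 reads in 3 libraries, Benjamini-Hochberg over all genes, adjusted p under 0.05), and alternatively with edgeR 4.0.16. The fit was tested on simulated data, where it recovered most changed genes but made more false calls than its nominal rate. Fold changes are not shrunken, intervals cover 95%. TPM was compared on log2(TPM + 1) by exact permutation, and correlations by 100000 permutations (Python 3.11.15, numpy 2.4.6). Intervals take estimated reads as counts. Genes named outside the 9 were the highest in each class of the EMT list, those called, and the 3 most alike.

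No gene on the opposite strand of Cdh1, Epcam, Vim, Snai1, Snai2 or Twist1 was annotated. Overlapping antisense or noncoding genes are annotated at Cdh2, Zeb1 and Zeb2, and strand use in counting is not given in the sources used here.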

Additional observations from a re-analysis of the deposited data

How the results depend on the processing

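Of 113 counts of the 9 genes called under alternatives, 0 were above 0: edgeR, other size factors, other count filters, no length correction, fits of 2 groups, an adjusted p under 0.1, single tumours left out and coding transcripts only (chosen after seeing the data). Of 404 log2 fold changes, 364 kept the reported sign and 0 passed. Those that changed sign outside single omissions were Zeb2 with miR-142-5p over coding transcripts (-0.066), Snai2 with miR-222-3p under the replicate block (-0.013) and Zeb1 with miR-222-3p without the length correction (0.11) or over coding transcripts (0.11), and the cause was not tested. Tumours with equal replicate numbers were not alike on average: the mean correlation of deviations was -0.07 for equal numbers and 0.03 for unequal ones. The 18 equal pairs ran from -0.65 to 0.48, and 6 exceeded 0.1, so the mean cannot show whether some tumours were paired. The block changed no call among the 9 genes.

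With single tumours left out, the log2 fold changes that crossed 0 had these ranges. With miR-142-5p they were -0.30 to 0.13 for Cdh1, -0.20 to 0.24 for Epcam, -0.045 to 0.24 for Vim, -0.072 to 0.32 for Snai1, -0.18 to 0.080 for Twist1, -0.013 to 0.46 for Zeb1 and -0.086 to 0.14 for Zeb2. With miR-183-5p they were -0.15 to 0.17 for Cdh1, -0.046 to 0.36 for Epcam, -0.073 to 0.17 for Twist1 and -0.39 to 0.039 for Zeb1. With miR-222-3p they were -0.25 to 0.042 for Cdh1, -0.22 to 0.23 for Epcam, -0.14 to 0.49 for Cdh2, -0.056 to 0.073 for Vim, -0.24 to 0.40 for Snai1, -0.22 to 0.23 for Snai2, -0.13 to 0.11 for Twist1, -0.26 to 0.17 for Zeb1 and -0.24 to 0.089 for Zeb2.

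Fitted on the miR-183-5p and ctrl libraries alone, 1 gene of the wider EMT list passed (Prrx1) against 0 with all libraries. Between these groups 1 of the 9 genes did not overlap in TPM, beside 8.14% of all genes, and 2 in normalised counts, beside 9.17%. Against 3 pairs called, 6 were called on group-centred values, 5 over coding transcripts, 0 in TPM, 0 without the 2 farthest tumours, and 0 to 5 with single tumours left out. Over all genes the calls ran from 0 to 9 across the 7 tests. They were 0 in edgeR, 1 to 70 in fits of 2 groups, 0 to 38 at an adjusted p under 0.1, 0 to 7 with at least 50 reads in every library, 0 to 8 over coding transcripts, and 0 to 415 without miR-142-5p tumour 1, at least 72 in each test that included this group. Cdh2 and Snai2 had 10 to 65.1 reads per library, the fewest of the 9 genes.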
